A study of Homo sapiens with 4 samples.

Results

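The genes described here encode the core histones H2A, H2B, H3 and H4 and the linker histone H1. They were taken from the platform annotation as probe sets that list 1 gene symbol, where that symbol begins with H1-, H2AC, H2AZ, H2BC, H3C, H3-3, H4C or MACROH2A, together with H2AX and H2AJ. This gave 56 genes on 80 probe sets, of 19775 genes with 1 symbol in the series. H1-10-AS1, an antisense transcript whose symbol also begins with H1-, is no histone gene and was left out. H3-3B has no probe set here that lists it alone, so it was not analysed as a gene. By class, 42 genes were replication-dependent histones, 8 were replacement histones, 3 were germline linker histones (H1-6, H1-7 and H1-8) and 3 were pseudogenes. On chromosome 6 lie 42 of the 56, by the reference gene annotation.

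U937 is a human line of monocytic character from a histiocytic lymphoma. Cells transduced with shPIR#7, a short hairpin against PIR in the lentiviral vector pSICO-R, were compared with cells transduced with pSICO-R alone. Pirin, the product of PIR, is a nuclear protein that binds iron. Each condition was 1 pool of RNA from 3 extractions, hybridised to 2 Affymetrix HG-U133 Plus arrays, so 4 arrays were read. Both pools thus come from lentivirally transduced U937 cells, 1 hairpin was used, and whether either line was a clone is not given in the sources used here. Errors are SDs between the 2 arrays of a pool (n = 2 arrays), which repeat the hybridisation only. The comparison is between 2 pools, so the condition itself is not replicated and has no p-value.

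Histones wrap DNA into nucleosomes, and linker histones bind where the DNA enters and leaves. Replication-dependent histone genes lie in clusters, lack introns and are transcribed mainly in S phase. Most of their mRNA ends in a stem-loop in place of a poly(A) tail, although many of these genes can also give polyadenylated transcripts. Replacement histones are made outside S phase as well, mostly from genes whose mRNA is polyadenylated. Among them are H2A.Z (H2AZ1, H2AZ2) at promoters, H3.3 (H3-3A, H3-3B) in active chromatin, macroH2A in silent chromatin, and H2A.X in the DNA damage response. H2AX was classed here as replacement, and a setting that counts it as replication-dependent is given at the end. Standard Affymetrix targets are primed from poly(A) tails, so transcripts without a tail are largely outside what such arrays read.

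PIR had signals of 83.4 and 91.5 on the knock-down arrays, against 1812.9 and 1881.7 on the empty-vector arrays. The 60th percentile of each array's signal, 116.4 and 124.5 on the knock-down arrays and 125.5 on each empty-vector array, served as a brightness limit, and a gene was taken as measured where 1 pool or both had each of its arrays at this limit. Differences are knock-down minus empty vector on the log2(signal + 18) scale. A gene met the size rule at a difference of at least 1 (2-fold), with all 4 array-by-array differences at least 0.5 the same way and both arrays of the higher pool at the limit. The ratio of 3' to 5' signal, a measure of RNA integrity, was 0.98 and 1.00 for GAPDH in knock-down and 0.96 and 1.02 with empty vector, and for ACTB it was 1.17 to 1.18 on all 4 arrays. Of the myelomonocytic markers LYZ, SPI1, CEBPA, CSF1R, ITGB2, CD4, MPO and FCGR1A, the first 6 were measured and the last 2 were not. The median difference of the 6 was 0.32, with 5 above 0. In 4 of them both knock-down arrays lay above both empty-vector arrays, an order found in 40.9% of all measured genes. These were CD4 at 0.84, CSF1R at 0.69, ITGB2 at 0.38 and CEBPA at 0.26. Of 11 markers of lymphoid, erythroid, epithelial and stromal cells, CD79A and COL1A1 were measured, each with overlapping arrays in the 2 pools. Summed signals of the measured myelomonocytic markers, most of it from LYZ (difference 0.01, arrays overlapping), came to 48687 and 53432 with PIR knocked down, against 45059 and 46301 with empty vector. Those of CD79A and COL1A1 were 433 and 528.3 in knock-down, against 455.1 and 474.1 with empty vector, and the part of either list in the histone values was not tested.

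No histone gene met the size rule in either direction. Only 16 of the 56 genes were measured, 10 replication-dependent and 6 replacement, and the rule was met by 2.44% of the 10288 measured genes as higher and by 1.1% as lower. Differences of the 16 ran from -0.55 for H2BC9 to 0.46 for H1-2. Their median was -0.30, and 12 of 16 were negative, beside a median of 0.05 and 44.8% negative over all measured genes. In 11 of the 16 both knock-down arrays lay below both empty-vector arrays, and in 3 both lay above. The same orders were found in 31.2% and 40.9% of all measured genes. limma's fit of the arrays over all genes, which sets the pools against the error of hybridisation alone, called 4 of the 56 lower (H2AX, H2AZ1, H2BC12 and H2BC12L) and 1 higher (H2AC5P, under the brightness limit), beside 6.97% and 9.69% of all genes. With the replica number as a block it called the same 4 lower and none higher, beside 7.77% and 10.8%. These were pools of RNA from many cells, so fewer cells in S phase and less transcript per cell cannot be told apart.

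**Figure D1:**
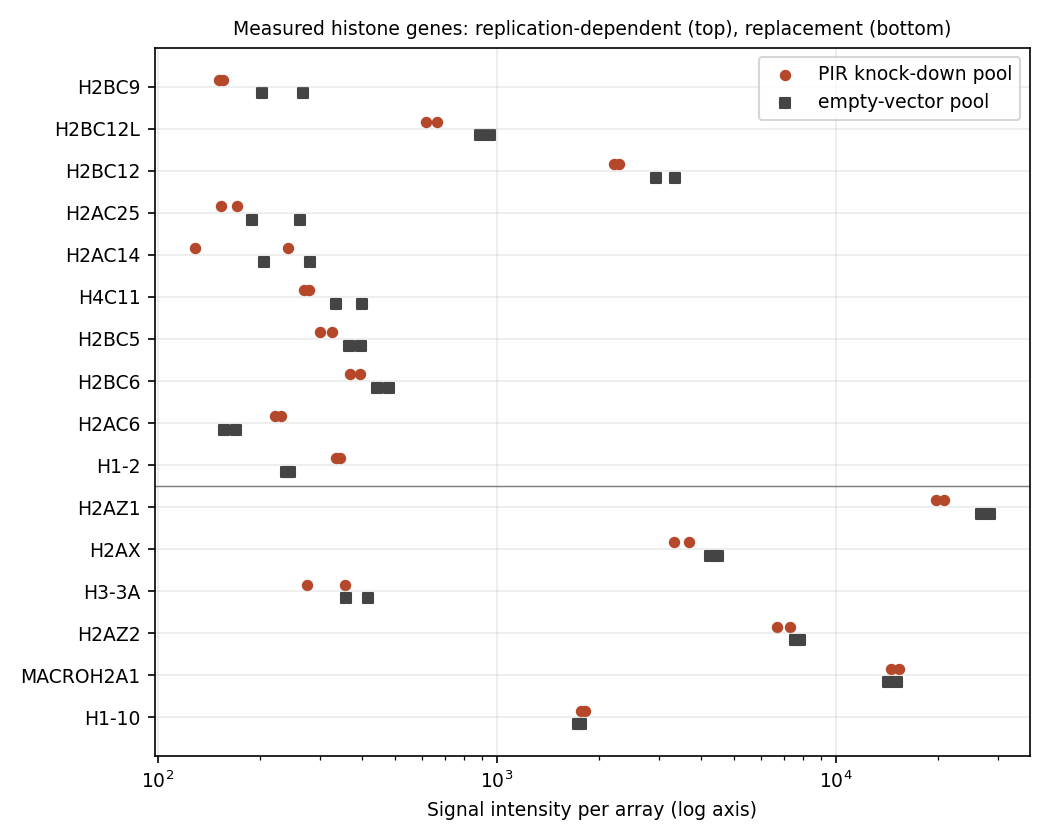
Signal intensity (log axis) of the 16 measured histone genes on each array, with the 2 knock-down arrays as circles above the 2 empty-vector arrays as squares. The H2B genes, H2AZ1 and H2AX have both circles left of both squares, while H2AC6 and H1-2 have both circles to the right.

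All 5 measured replication-dependent H2B genes were lower on both knock-down arrays than on either empty-vector array, with a median difference of -0.48 (1.39-fold), and 4 of the 5 were read by probe sets ending in _x_at, whose probes can bind several related transcripts. H2BC12 had signals of 2207.8 and 2287.6 on the knock-down arrays, against 2940.2 and 3346.5 on the empty-vector arrays. The difference was -0.48, with array pairs from -0.60 to -0.36. H2BC12L, a related gene on chromosome 21, had 617.3 and 666.8 in knock-down, against 955.6 and 892.2 with empty vector (difference -0.51). H2BC9 had 155.2 and 151.8 on the knock-down arrays, against 267.2 and 202.1 on the empty-vector arrays, a difference of -0.55 with pairs from -0.75 to -0.35. The empty-vector arrays of H2BC9 were the less even, but they did not overlap the knock-down arrays. H2BC5 averaged 313 ± 17.7 in knock-down and 382 ± 21.8 with empty vector, a difference of -0.27. H2BC6 averaged 380 ± 18.4 in knock-down and 461 ± 25.5 with empty vector, also a difference of -0.27. The second measured probe set of H2BC5, 209911_x_at, gave 0.14 with overlapping arrays, so the probe sets of this gene disagree in sign.

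Among the other replication-dependent genes H1-2 and H2AC6 had positive differences. H1-2, a somatic linker histone, had signals of 343.0 and 334.9 on the knock-down arrays, against 237.8 and 245.8 on the empty-vector arrays. Its difference of 0.46 (1.37-fold) had pairs from 0.42 to 0.50, a narrow range. H2AC6, an H2A gene, had 221.6 and 230.8 in knock-down, against 156.2 and 170.0 with empty vector, a difference of 0.43 (pairs 0.35 to 0.51). In both genes the 2 pools were separated. The difference of each lay between the median and the 90th percentile (0.55) of all measured genes. H4C11, an H4 gene, averaged 275 ± 6.29 in knock-down and 367 ± 45.2 with empty vector (difference -0.39), with both knock-down arrays below both empty-vector arrays. H2AC25 averaged 162 ± 12.6 in knock-down and 226 ± 51.4 with empty vector, a difference of -0.43 with pairs as close as -0.14. H2AC14 had 128.4 and 241.9 in knock-down and 205.7 and 279.8 with empty vector. Its arrays overlap, and its difference of -0.40 was 0.01 without knock-down replica 1.

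Of the 10 measured replication-dependent genes, 6 (H2BC9, H2BC12L, H2AC14, H4C11, H2BC5 and H2BC6) were read by _x_at probe sets. All 6 had negative differences, with a median of -0.40. The other 4 were H1-2 and H2AC6 above 0 and H2BC12 and H2AC25 below, with a median of 0.003. Other measured _x_at probe sets of replication-dependent genes had both signs. Positive were 209911_x_at of H2BC5 with 0.14 (arrays overlapping) and 218280_x_at, which lists H2AC18 and H2AC19, with 0.26. Negative were 208580_x_at with -0.79, 208490_x_at with -0.64 and 214542_x_at with -0.51, which list several H4, H2B and H2A genes. The part of shared probes in the negative differences was not tested, and each of the 6 signals may hold transcripts of several histone genes.

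Upstream sequences of 6 measured genes are given because the measured replication-dependent genes divide by direction while some promoter words occur on both sides. They are the 150 bases before the RefSeq start (GRCh38.p14), printed 5′ to 3′ on the gene's own strand. Capitals mark the CCAAT box, the TATA box word TATAAA and the octamer word ATTTGCAT, on either strand. The last is bound by POU2F1 (Oct-1) and is a known element of H2B promoters. H2BC12 (chr6:27146859-27147008, minus strand) and H2BC9 (chr6:26251464-26251613, plus strand) are H2B genes with negative differences. H2AC6 (chr6:26124022-26124171, plus strand) and H1-2 (chr6:26056471-26056620, minus strand) are the genes with positive ones. H2AZ1 (chr4:99950276-99950425, minus strand) and H2AX (chr11:119095466-119095615, minus strand) are replacement genes.
H2BC12: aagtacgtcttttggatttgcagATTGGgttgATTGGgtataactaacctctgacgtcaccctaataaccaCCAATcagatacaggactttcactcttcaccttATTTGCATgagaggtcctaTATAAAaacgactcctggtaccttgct
H2BC9: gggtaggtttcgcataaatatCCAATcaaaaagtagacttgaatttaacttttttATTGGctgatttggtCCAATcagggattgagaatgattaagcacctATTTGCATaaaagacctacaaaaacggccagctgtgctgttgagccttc
H2AC6: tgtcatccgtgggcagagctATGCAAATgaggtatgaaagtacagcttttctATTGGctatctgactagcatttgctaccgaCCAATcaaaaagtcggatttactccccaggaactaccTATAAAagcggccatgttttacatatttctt
H1-2: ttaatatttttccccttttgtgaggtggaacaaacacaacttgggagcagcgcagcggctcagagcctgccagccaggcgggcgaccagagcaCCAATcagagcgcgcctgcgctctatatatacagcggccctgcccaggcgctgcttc
H2AZ1: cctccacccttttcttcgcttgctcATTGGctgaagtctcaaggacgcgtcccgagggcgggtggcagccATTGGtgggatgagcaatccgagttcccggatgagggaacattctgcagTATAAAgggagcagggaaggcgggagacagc
H2AX: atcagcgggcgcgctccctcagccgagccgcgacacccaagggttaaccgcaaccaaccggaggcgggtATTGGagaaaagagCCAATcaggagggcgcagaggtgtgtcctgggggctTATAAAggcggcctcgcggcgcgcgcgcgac

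In these stretches the octamer stands in H2BC12 and H2BC9 and also, on the opposite strand, in H2AC6, whose difference had the other sign. H1-2, the other gene with a positive difference, has CCAAT but neither TATAAA nor the octamer. H2BC4 neighbours H2AC6 in the gene table. Over the 250 bases before the start, searched on both strands for these words and, as other promoter words, GGCGC with the longer TTTGGCG, 50 of the 56 genes had a promoter in the table. ATTTGCAT was found in 10 of 13 promoters of replication-dependent H2B genes and in none of 8 of replacement genes, beside 1.67% of all 27305 promoters. CCAAT was in 87.2% of 39 replication-dependent promoters and TATAAA in 69.2%, beside 33.0% and 11.2% of all promoters. The shorter of the other words, GGCGC, was in 53.8%, beside 44.2% of all promoters. The longer, TTTGGCG, was in 2.56%, beside 1.6%, and where C follows it the shorter word is there too. Of the 9 measured replication-dependent genes with a promoter, 5 held the octamer: H2BC9, H2BC12, H2AC14 and H2BC6, with differences from -0.55 to -0.27, and H2AC6 at 0.43. A word match is a description of the sequence and not a binding site.

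**Figure D2:**
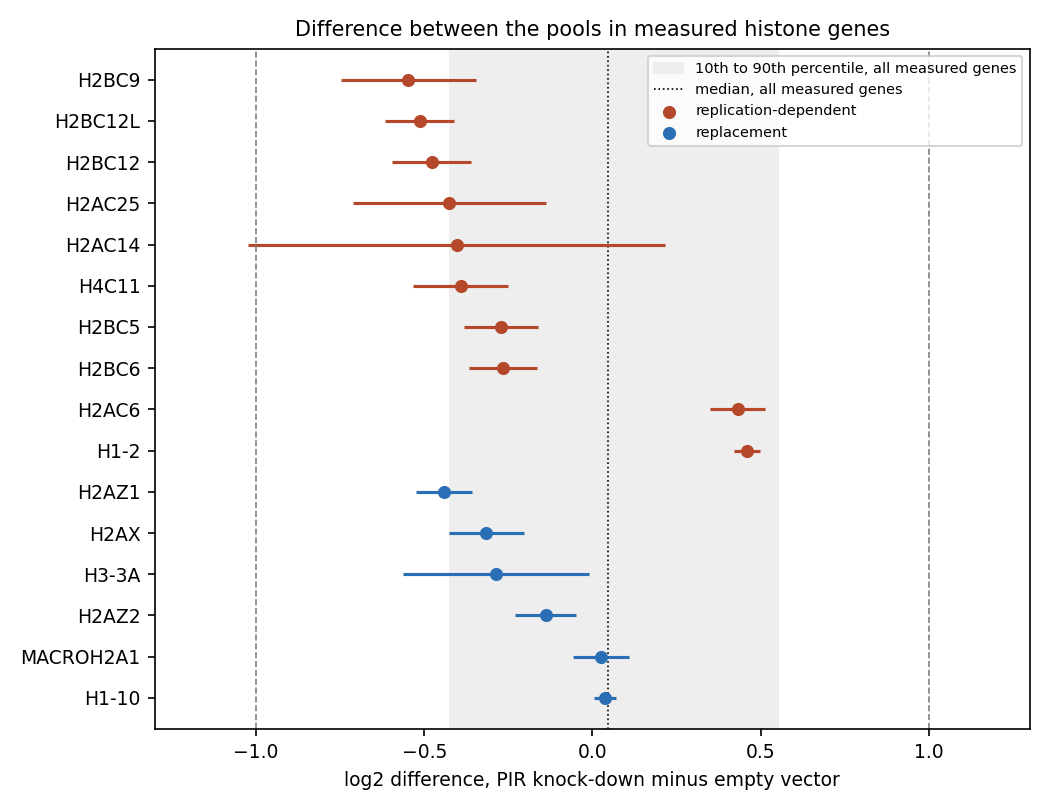
Log2 difference (knock-down minus empty vector) of each measured histone gene, with points at the difference of pool means and lines over the 4 array pairs; the grey band spans the 10th to the 90th percentile of all measured genes (-0.42 to 0.55) and dashed lines mark the 2-fold limit. No point reaches a dashed line, and H2BC9, H2BC12L, H2BC12 and H2AZ1 lie left of the band, with H2AC25 at its edge.

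Among the 6 measured replacement histones, H2AZ1 and H2AX had the largest negative differences. H2AZ1 had signals of 19760.9 and 20813.6 on the knock-down arrays, against 26663.0 and 28419.4 on the empty-vector arrays, a difference of -0.44 (1.36-fold, pairs -0.52 to -0.36). The 2 pools were separated on this probe set, and on the second H2AZ1 probe set the difference was -0.17, also without overlap. H2AZ2, the second H2A.Z gene, had 6684.5 and 7330.8 in knock-down, against 7575.8 and 7837.8 with empty vector (difference -0.14). Its other 3 probe sets gave -0.55, -0.69 and -0.37, so the probe set with the highest signal had the smallest difference of the 4. H2AX had 3683.1 and 3330.8 in knock-down, against 4242.9 and 4485.8 with empty vector (difference -0.32, pairs -0.43 to -0.20). Its other 2 measured probe sets gave -0.44 and -0.83. All 9 measured probe sets of H2AZ1, H2AZ2 and H2AX had both knock-down arrays below both empty-vector arrays, an order found in 33.3% of all measured probe sets.

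MacroH2A1 and H1.10 had almost equal signals. MACROH2A1 averaged 14931 ± 538 in knock-down and 14680 ± 669 with empty vector, a difference of 0.02 whose arrays overlap and whose sign changed under quantile normalization (-0.02) and without knock-down replica 2 (-0.01) or empty-vector replica 1 (-0.02). Of its other 4 measured probe sets, 214501_s_at and 226840_at gave 0.01 and -0.01, 229593_at gave -0.26 and 214500_at gave 0.43. The last had 962 and 845 in knock-down, against 706 and 626.4 with empty vector, without overlap. H1-10, a linker histone made outside S phase, averaged 1793 ± 31.2 in knock-down and 1747 ± 24.7 with empty vector, a difference of 0.04. The knock-down arrays of H1-10 were the higher by a narrow margin, with pairs from 0.01 to 0.07. H3-3A, on the only probe set that lists it alone, averaged 315 ± 55.9 in knock-down and 387 ± 41.7 with empty vector (difference -0.29), with pairs from -0.56 to -0.01. The probe sets that list H3-3A with other genes were all brighter and fell on both sides of 0, as given below. H2AJ and MACROH2A2 were under the brightness limit.

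The replication-dependent genes had a median difference of -0.40 and the replacement genes one of -0.21. The gap between these medians was -0.19, and over the 4 array pairs it ran from -0.36 to -0.02 (SD 0.15). It was 0.24 when the genes under the brightness limit were included and 0.22 without the _x_at probe sets, so the order of the 2 classes was not stable. Both medians lay below that of all measured genes, and leaving out any 1 array kept both negative.

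Probe sets that list several genes fall outside the rule, and 28 of them list a histone of these classes. They were examined after the values above were seen, are assigned to no gene, and 14 were measured. Of these, 2 met the size rule as lower and none as higher, beside 1.45% and 2.29% of all measured probe sets. The first, 205967_at, lists 14 H4 genes. It had signals of 2844.4 and 2685.2 on the knock-down arrays, against 8553.9 and 9213.9 on the empty-vector arrays, a difference of -1.68 (3.20-fold). The other measured H4 probe set, 208580_x_at, lists the same genes and had 305.7 and 185.4 in knock-down, against 436.1 and 416.0 with empty vector (difference -0.79). The knock-down arrays were below the empty-vector arrays on both, by unlike amounts. H2B was lower on its shared probe set too, with 208490_x_at at -0.64. Shared H2A probe sets differed in sign: 214542_x_at, which lists 6 genes, gave -0.51, but 214290_s_at and 218280_x_at, which list H2AC18 and H2AC19, gave 0.30 and 0.26. However, 214542_x_at was measured through the empty-vector pool only. It had 140.1 and 151 there, against 90.9 and 103.6 in knock-down, under the brightness limit.

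The H3.3 probe sets divided by the third entry in their annotation. The 4 that list H3-3A, H3-3B and MIR4738, a microRNA gene, all had negative differences. Of these, 211998_at met the size rule, with 1032.1 and 931 in knock-down, against 1954 and 2147.1 with empty vector, a difference of -1.05 (2.07-fold) whose pairs ran from -1.19 to -0.91. The other 3 gave -0.52, -0.38 and -0.34. The 4 that list H3-3A, H3-3B and H3P6, a transcribed pseudogene, all had positive differences, from 0.26 to 0.39. An example is 200080_s_at, with 30856 and 29914.4 in knock-down, against 22634.7 and 23633.3 with empty vector. None of these 8 probe sets had overlapping arrays. Both knock-down arrays lay above both empty-vector arrays in 37.4% of all measured probe sets and below in 33.3%. From these 8 no level or direction can be given for H3.3 as a whole.

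**Figure D3:**
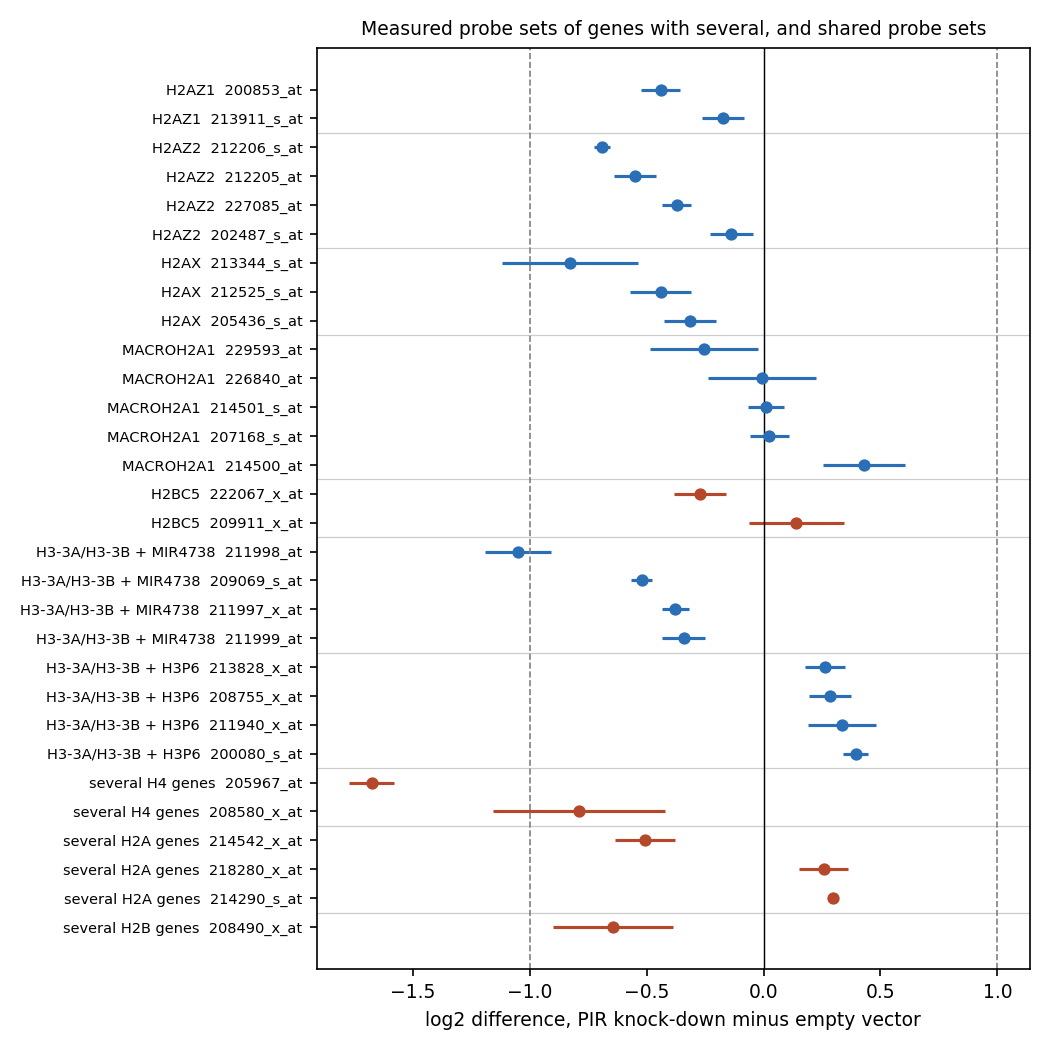
Log2 difference (knock-down minus empty vector) of measured probe sets for the genes with more than 1 of them, and of measured probe sets that list several genes; points are pool means, lines span the 4 array pairs and dashed lines mark the 2-fold limit. The H4 probe set 205967_at (-1.68) and the H3.3 probe set 211998_at (-1.05) lie beyond the limit, and the H3.3 probe sets fall on both sides of 0.

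The other 40 histone genes were under the brightness limit, with signals from 2.6 to 213.7, and their differences scatter widely. Their array-pair ranges had a median width of 0.78, beside 0.21 for the 16 measured genes. The 40 differences had a median of -0.02, with 20 above and 20 below 0. Both knock-down arrays lay above both empty-vector arrays in 7 and below in 13 of the 40, orders found in 14.4% and 22.1% of all 9487 genes under the limit. Among the replication-dependent ones, 8 of 9 H2B genes had differences above 0, beside 44.0% of all genes under the limit. In 5 of the 9 both knock-down arrays lay above both empty-vector arrays, and in 1 both lay below. Of the 7 H4 genes, 5 had negative differences, as did 4 of 7 H3 genes, none of which was measured on a probe set of its own. Both knock-down arrays lay below both empty-vector arrays in 4 of the 7 H4 genes and in 4 of the 7 H3 genes. In none of these H3 and H4 genes did both lie above. The H1 and H2A genes under the limit had 2 of 4 and 2 of 5 negative.

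Some of these are named here after their values were seen. H2BC21 had 88.8 and 78.8 in knock-down, against 35.7 and 49.2 with empty vector, a difference of 0.76 with pairs from 0.53 to 0.99. H2BC4, the neighbour of H2AC6, had 26.9 and 45.7 in knock-down, against 6.3 and 2.6 with empty vector (1.26), and the pseudogene H2AC5P had 33.4 and 56 in knock-down, against 5.9 and 6.4 with empty vector (1.35). These 3 were separated between the pools, yet all their signals lie under the limit. The measured shared probe set 208490_x_at, which lists H2BC4 among 5 H2B genes, had the other sign (-0.64). H3C3 had 6.7 and 15.7 in knock-down, against 136.9 and 23.1 with empty vector. The empty-vector arrays of H3C3 lie far apart, and its difference of -1.47 had pairs from -2.65 to -0.29. The germline linker genes H1-6, H1-7 and H1-8 had differences from -1.03 for H1-7 to -0.11 for H1-8, none with a signal above 86.4.

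**Figure D4:**
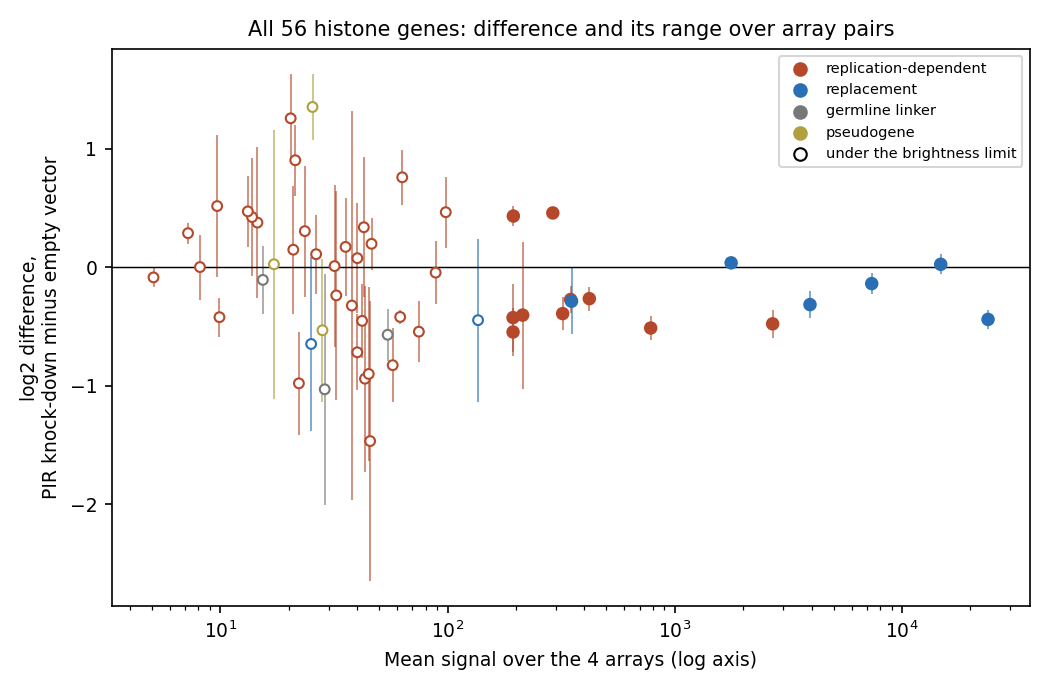
Mean signal over the 4 arrays (log axis) against log2 difference (knock-down minus empty vector) for the 56 histone genes, filled where measured and open where under the brightness limit; lines span the 4 array pairs. Lines are long among the open points, with a median length of 0.78, and short among the filled ones, with 0.21.

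Genes that make and process histone mRNA were examined as a list. None of the 17 measured members met the size rule on its representative probe set. Of the 17, 14 had negative differences, beside 44.8% of all measured genes, and the median was -0.18. Both knock-down arrays were below both empty-vector arrays in 11 and above in 3, orders found in 31.2% and 40.9% of all measured genes. SLBP, which binds the stem-loop of histone mRNA and accumulates in S phase, had signals of 7474.5 and 7628.9 on the knock-down arrays, against 11573.4 and 11779.8 on the empty-vector arrays. This difference of -0.63 (1.54-fold) was the largest in the list and its pairs ran from -0.65 to -0.60. Both scaffold genes of the histone locus body were on the other side: NPAT, the transcriptional coactivator of histone genes, had 0.19 and CASP8AP2 (FLASH) had 0.28, each without overlap. LSM10 and LSM11, of the U7 particle that cleaves histone pre-mRNA, had -0.18 and -0.02, the second with overlapping arrays. Some genes of the list had measured probe sets of both signs, each without overlap. SYMPK had -0.48 on its representative but 0.48 and 0.29 on others, and UPF1 had -0.22 but 0.19. YY1 had -0.22 on its representative, 0.08 and 0.05 on others and -0.15 on another. ZNF473 had 0.06 but -0.24. Measured probe sets shared a sign in ERI1 (-0.23 and -0.28) and CDK2 (-0.18 and -0.17).

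Histone chaperones also had mostly negative differences, with 20 of 24 below 0, beside 44.8% of all measured genes. Their median was -0.13, and no gene met the size rule on its representative probe set. The arrays of the pools were apart in 12 of the 24, 10 below and 2 above, beside 31.2% and 40.9% of all measured genes. DAXX, which deposits H3.3 with ATRX, had -0.38, while its _x_at probe set met the rule at -1.15, with 646.3 and 732.7 in knock-down, against 1118 and 2143.4 with empty vector. HJURP, which deposits the centromeric H3 variant CENP-A, had 1497.6 and 1516.1 in knock-down, against 2399.3 and 2309.2 with empty vector (difference -0.64). Its cargo CENPA, a histone gene outside the rule, had 1090.9 and 1197.4 in knock-down, against 1519 and 1635.8 with empty vector (difference -0.46). Both genes had separated pools. NASP, a chaperone of H3 and H4, had -0.30 and, on its other measured probe set, -0.18. CHAF1A, of the chromatin assembly factor that acts at replication forks, had -0.15 on its representative but 0.07 and 0.13 on its other measured probe sets, all without overlap. CHAF1B, of the same factor, had -0.11 with overlapping arrays. NPM1, a nucleolar chaperone, had 0.29 on its representative, -0.25 on a second probe set, also without overlap, and -0.02 on the third. ANP32E, which removes H2A.Z from nucleosomes, had -0.19 on its representative and -0.60 and -0.34 on the others.

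S phase genes also had mostly negative differences. Of 19 measured members, 16 had negative differences, beside 44.8% of all measured genes, and the median was -0.28. None met the size rule on its representative probe set. In 14 the knock-down arrays were both below the empty-vector arrays, and in 2 both were above, beside 31.2% and 40.9% of all measured genes. Their summed signal was 148391 and 147629 on the knock-down arrays, against 171359 and 172998 on the empty-vector arrays. MCM2, a helicase subunit, had the largest difference, -0.72, with 6990.6 and 6623 in knock-down, against 11004.4 and 11369.9 with empty vector. RRM2, a subunit of ribonucleotide reductase, had -0.70, and its second probe set met the rule at -1.44, with 7258.1 and 7014.9 in knock-down, against 19033.4 and 19619.4 with empty vector. PCNA and MCM3 had 0.16 and 0.13, each without overlap. MCM6 had 0.09 with overlapping arrays, but -0.39 without overlap on its other probe set, with pairs from -0.61 to -0.18. The part of S phase genes in the histone differences was not tested.

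**Figure D5:**
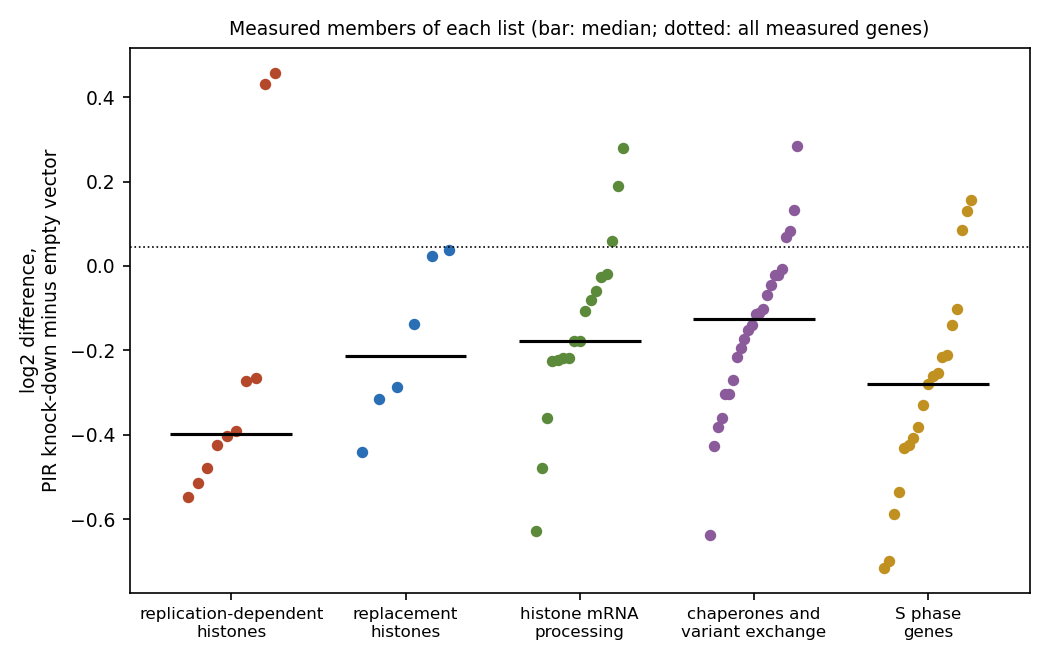
Log2 difference (knock-down minus empty vector) of each measured member of 5 gene lists, with bars at the medians and a dotted line at the median of all measured genes (0.05). The medians are -0.40 for replication-dependent histones, -0.21 for replacement histones, -0.18 for histone mRNA processing, -0.13 for chaperones and -0.28 for S phase genes, all below the dotted line.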

How the data were processed

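Total RNA was pooled from 3 extractions per condition and hybridised to 2 arrays per pool, per the labels' protocols. GCOS is named in the submitters' processing notes, without version or settings. The deposited table holds linear signal intensity per probe set, scaled by the authors to 1 trimmed mean per array; the number of arrays limits the precision, and no detection calls were used. Of 54675 probe sets, 62 controls were left out, 41091 had 1 symbol, 1801 several and 11721 none. Each gene was represented by the brightest of its probe sets by log2(signal + 18), where 18 is the mean 25th percentile of signal. Arrays of a pool were averaged as 1 sample, with no test of the condition. Named genes were PIR, histone genes that met the size rule, every measured replacement gene, the 6 largest differences in each direction among replication-dependent genes, the 6 with the highest signal, and for each related list up to 3 members that met the rule or else its largest difference; other related genes and probe sets were named after their values were seen. Members and lists were chosen with earlier results of these data known. The replica numbers do not pair the arrays: the correlation of replica 1 minus replica 2 between the pools was -0.005 across measured genes. Promoters are RefSeq's (GRCh38.p14). Alternatives included other pseudocounts, limits, scalings and probe set rules, each array left out, and limma. The size rule and limma were tested on simulated data. Python 3.11.15, pandas 2.3.3, numpy 2.4.6, matplotlib 3.10.9, R 4.3.3 and limma 3.58.1 were used.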

Additional observations from a re-analysis of the deposited data

How the results depend on the processing

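The count of histone genes that met the size rule as higher was 2 without the brightness limit (H2AC5P and H2BC4) and 0 under the other settings of the rule. As lower it was 2 with probe sets that list several genes added, a setting chosen after the data were seen, beside 1.45% of all measured probe sets. With each array left out it was 0 to 1, beside 1.31% to 1.71% of all measured genes. The 1 was H3C3 without empty-vector replica 2, where the share was 1.57%. limma, whose error is that of hybridisation and not of the condition, called 1 higher (H2AC5P) and 4 lower (H2AX, H2AZ1, H2BC12 and H2BC12L) of the 56 at an adjusted p under 0.05 without a replicate block, and with the replicate block 0 higher and the same 4 lower. At an unadjusted p under 0.05 it called 4 higher and 6 lower without the block, and 3 higher and 7 lower with it. The share of all genes at the unadjusted limit was not computed, so these counts have no baseline and are not read as a result.

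The replication-dependent median was -0.066 without the brightness limit, -0.48 at the 75th percentile (3 genes), -0.28 under median scaling and 0.0034 without _x_at probe sets, and -0.38 to -0.30 with each array left out. The replacement median was -0.30 without the limit, -0.14 at the 75th percentile, -0.089 under median scaling, -0.30 with all probe sets averaged, -0.44 without _x_at and _s_at probe sets (3 genes) and -0.14 with H2AX among the replication-dependent genes. The gap between them was 0.24 without the limit, -0.34 at the 75th percentile, -0.031 with all probe sets averaged, 0.22 without _x_at and 0.015 without _x_at and _s_at probe sets; with each array left out it ran from -0.20 to -0.04. The measured replication-dependent and replacement genes were 3 and 5 at the 75th percentile and 4 and 6 without _x_at probe sets. They were 3 and 3 without _x_at and _s_at probe sets, and 10 and 6 with all probe sets averaged. The cause of these shifts was not tested. The median of all measured genes was 0.17 under median scaling and 0.05 as deposited. Of 230 values of 19 named genes under these settings, 4 changed sign: MACROH2A1 in 3 and H2AC14 in 1. Another 23 moved by at least the gene's SD between arrays, combined over both pools. H2AZ2, at -0.14 on its representative probe set, was -0.44 with all probe sets averaged and -0.55 without _x_at and _s_at probe sets. MACROH2A1, at 0.02 on its representative, was 0.24 and 0.43 under these settings. Low signal limits the 40 genes under the limit, and histone mRNA without a tail is largely outside what these arrays read.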
